A study of Mus musculus with 4 samples.

Results

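The enzymes that place, maintain and remove DNA methylation were examined in B16-F10 mouse melanoma cells sorted by the amount of Met receptor on their surface. The 8 genes were taken by name, the DNA methyltransferases *Dnmt1*, *Dnmt3a* and *Dnmt3b*, the maintenance factor *Uhrf1*, the dioxygenases *Tet1*, *Tet2* and *Tet3*, and the glycosylase *Tdg*. All probes whose accession belongs to 1 of these 8 genes in mouse RefSeq were used, which gave 17 of the 39429 probes on the array and 8 of the 20832 genes named on it. Each gene had at least 1 probe, and *Dnmt1* and *Dnmt3a* had only 1.

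B16-F10 is an established, highly metastatic melanoma line grown from a C57BL/6 mouse, and both populations were drawn from the same parental culture, and no genetic change or drug was applied to either. Cells were separated on a flow cytometer after staining of surface Met, the receptor for hepatocyte growth factor, and each population was then kept in culture for 3 days before RNA was taken. In all, 2 independently prepared RNA samples of Met-low cells and 2 of Met-high cells were hybridised, 1 to each of 4 one-colour Agilent arrays. Signals below are log2 intensities relative to the 75th percentile of the same array, so that 0 is the signal of the probe at that percentile, and ratios are Met-high minus Met-low. Since RNA came from whole populations, fewer cells of a type and less RNA per cell cannot be told apart.

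Cytosines followed by guanine can carry a methyl group, a mark linked to silent promoters. *Dnmt3a* and *Dnmt3b* place it on unmethylated DNA, whereas *Dnmt1*, guided by *Uhrf1* to hemimethylated sites, copies it onto the new strand after replication. The Tet dioxygenases oxidise methylcytosine stepwise, and thymine DNA glycosylase, made from *Tdg*, cuts out the later oxidation products so that base excision repair can restore an unmodified cytosine. Loss of *Tet2* function is well known from blood cancers, and low levels of hydroxymethylcytosine, the first Tet product, are a known feature of melanoma.

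In the arrays, both *Tet2* probes gave a lower signal in the Met-high population by about the same amount, with ratios of -0.84 and -0.79. The *Tet1* probes were dim, and neither Met-high array measured 1 of them well above background. The maintenance genes *Uhrf1* and *Dnmt1* had ratios of the opposite sign, 0.84 for *Uhrf1* probe A_55_P2035286 and 0.66 for *Dnmt1*. *Dnmt3b* had small positive ratios on its 3 probes and *Dnmt3a* a small negative one. None of these differences passed the test. Of the 15 probes that passed the filter, which asked for a signal well above background on each array of 1 or both populations, 0 reached an adjusted p under 0.05 in limma, against 2.63% of the 19796 probes tested over the whole array. At an unadjusted p under 0.05 there were 6 of 15, 3 in each direction, against 22.5% of all probes tested, and 1 of these 6 was the *Tet1* probe that passed the filter through its Met-low arrays alone.

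**Figure D1:**
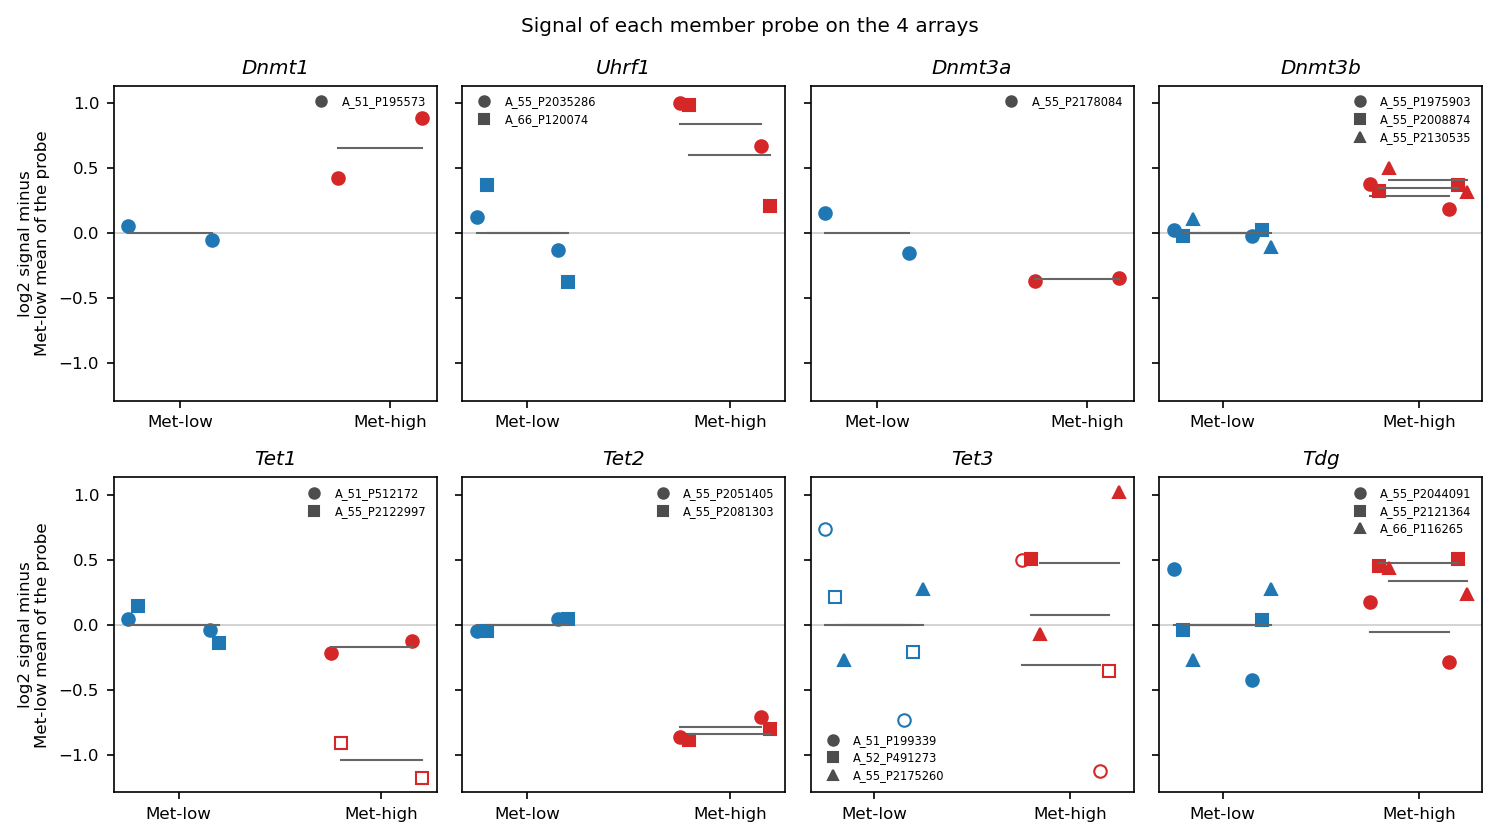
Log2 signal of each of the 17 probes on the 4 arrays, drawn as the difference from that probe's mean over the 2 Met-low arrays (vertical axis, log2 units), with 1 panel per gene and 1 marker shape per probe. Blue is Met-low, red is Met-high, open markers were not well above background, and short lines are group means. Both *Tet2* probes lie lower on both Met-high arrays, and *Uhrf1* A_55_P2035286 and *Dnmt1* lie higher.

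Groups that did not overlap were common on this array. Both Met-high arrays lay above both Met-low arrays for 6 of the 15 probes, against 32.4% of all probes tested, and the reverse held for 5, against 23.0%. The other 4 overlapped. Only *Tet1* A_55_P2122997, the probe that entered through its Met-low arrays, had group means more than 2-fold apart, against 7.97% of all probes tested. The median ratio over the 15 probes was 0.33 and that over all probes tested 0.07. The zero point of the ratios depended on the scaling, since the median of all probes became -0.08 when the percentile was taken over detected probes, and every ratio was then lower, with a median shift of -0.15. The ratios below are those of the main scaling. The smallest ratio among the 520 probes at an adjusted p under 0.05 was 1.04 in size and their median size was 1.84, so that most of the member genes' ratios lay below the sizes that were called with 2 arrays a population.

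**Figure D2:**
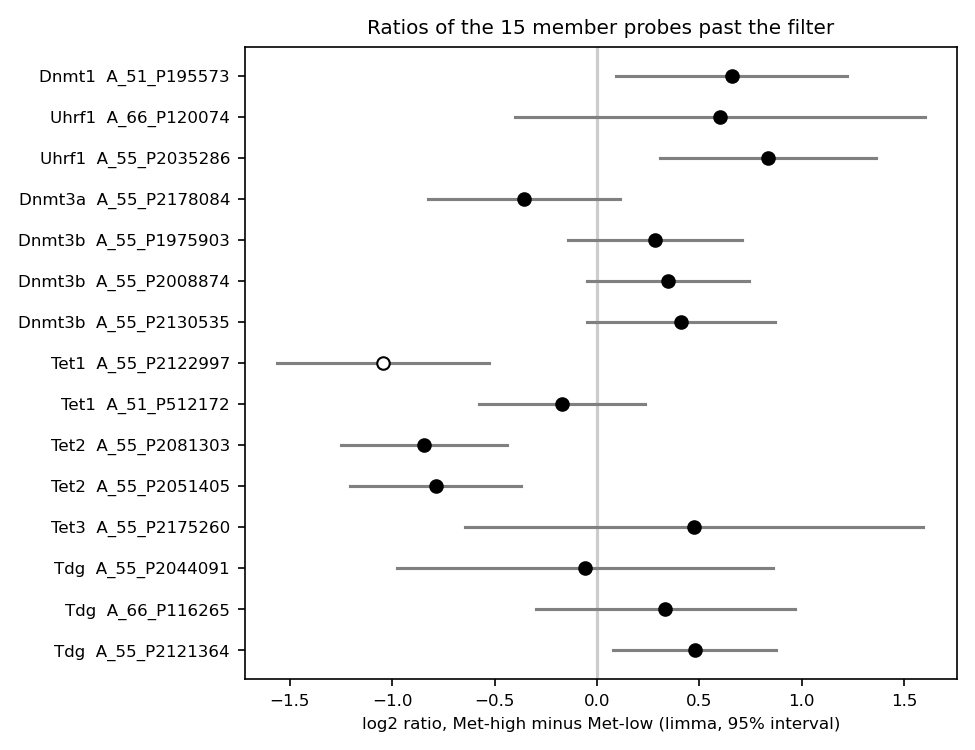
Log2 ratio of Met-high minus Met-low (horizontal axis) for the 15 probes past the filter, with the 95% interval from limma as a horizontal line. The open circle is the *Tet1* probe that was not well above background on either Met-high array. The *Tet2* probes and this *Tet1* probe have intervals below 0, and those of *Dnmt1*, *Uhrf1* A_55_P2035286 and *Tdg* A_55_P2121364 lie above 0.

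The arrays themselves were alike. The 75th percentile intensity was between 858 and 1331, between 50.01% and 53.6% of spots other than controls were well above background, and 0 were saturated. All 10 probes for melanocytic markers (*Pmel*, *Tyr*, *Tyrp1*, *Dct*, *Mlana*, *Mitf* and *Sox10*) were well above background on every array, with a summed relative signal of 1664 to 2041 in Met-low and 1719 to 2005 in Met-high cells. Markers of other cells were above background on some probes only. For fibroblasts, 1 or 2 of 6 probes were well above background and the sum was 0.628 to 0.685 in Met-low and 0.318 to 0.361 in Met-high cells. For leukocytes it was 3 or 4 of 7 probes with sums of 3.72 to 4.48 and 3.20 to 3.98, for endothelial cells 1 or 2 of 5 with sums of 5.49 to 6.32 and 6.73 to 8.45, and for keratinocytes 1 or 2 of 6 with sums of 0.134 to 0.235 and 0.123 to 0.147. Most of the endothelial sum came from 1 *Kdr* probe, whereas the other *Kdr* probe, *Cdh5* and *Tek* were well above background on no array. Most of the fibroblast sum came from *Col1a2*, and most of the leukocyte sum from 1 probe each of *Cd3e* and *Itgam*. Whether such cells were present was not tested. *Met*, the gene of the sorted receptor, had signals of -0.26 and -0.89 in Met-low and 1.03 and -0.43 in Met-high cells, so that its groups overlapped (ratio 0.87, SE 0.54, adjusted p = 0.403). The sort used the receptor on the cell surface, which the arrays do not measure. By quantitative RT-PCR, however, the study reports much more *Met* mRNA in sorted Met-high than in Met-low cells. It proposes that the surface difference came mainly from *Met* gene expression. The array ratio of *Met* had the same sign, but its groups were not separate. Why the arrays and the RT-PCR differ in this was not tested. All arrays came from 1 slide and 1 scan, with Met-low on the first pair of positions and Met-high on the second, and position and population cannot be told apart.

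Maintenance of methylation is described first. *Uhrf1*, whose protein binds hemimethylated DNA and brings the methyltransferase to it, had 2 probes. A_55_P2035286 gave signals of 4.37 and 4.11 in Met-low cells and of 5.24 and 4.91 in Met-high cells. Both Met-high arrays were above both Met-low arrays. The means were 4.24 ± 0.18 and 5.07 ± 0.23 (SD, n = 2 each), a ratio of 0.84 with SE 0.20 and a 95% interval of 0.31 to 1.36, or 1.78-fold, with an adjusted p of 0.116 in limma. The other *Uhrf1* probe, A_66_P120074, which carries the accession of another transcript of the gene, gave -1.01 and -1.75 in Met-low and -0.39 and -1.17 in Met-high cells. Here the groups overlapped, since replicates lay 0.75 apart in Met-low and 0.77 apart in Met-high cells, and the ratio of 0.60 (SE 0.38) was smaller than either gap (adjusted p = 0.414).

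*Dnmt1*, the maintenance methyltransferase, was measured by A_51_P195573. Its intensities were 1627 and 2128 for Met-low and 1917 and 3417 for Met-high samples, which became signals of 0.79, 0.68, 1.16 and 1.62 after each array was scaled. Both Met-high arrays were above both Met-low arrays, with means of 1.39 ± 0.33 and 0.73 ± 0.08 (SD, n = 2 each). The ratio was 0.66 (SE 0.22, 95% interval 0.09 to 1.22) or 1.58-fold, and the adjusted p was 0.183. Over the alternative settings the ratio stayed positive, between 0.43 and 0.89.

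Promoter windows are shown for these 2 genes because both are known targets of E2F factors, which drive genes of DNA replication. In RefSeq sequence of GRCm38.p6, from 250 bases before to 50 bases after a start site, 13 windows belonged to the 8 genes. The letters TTTNNCGC, searched on both strands with overlapping matches counted, were found in 3 of these 13 windows, 2 of *Uhrf1* and 1 of *Dnmt1*, and in 5.17% of all 32851 windows. Capitals mark the matched letters in 1 *Dnmt1* window (chr9:20952574-20952873, minus strand, 3 matches) and 1 *Uhrf1* window (chr17:56304063-56304362, plus strand, 1 match), each written 5′ to 3′. Each of these windows held 33 CpG sites, a number that 8.56% of all windows reached, where the median window held 7. The windows of these genes that are not shown held fewer CpG sites. Those of *Dnmt1* held 2 and 12, without a match, and that of *Uhrf1* held 12, with 1 match. A match to these letters is a description of the sequence only, and binding was not measured.
Dnmt1 promoter window: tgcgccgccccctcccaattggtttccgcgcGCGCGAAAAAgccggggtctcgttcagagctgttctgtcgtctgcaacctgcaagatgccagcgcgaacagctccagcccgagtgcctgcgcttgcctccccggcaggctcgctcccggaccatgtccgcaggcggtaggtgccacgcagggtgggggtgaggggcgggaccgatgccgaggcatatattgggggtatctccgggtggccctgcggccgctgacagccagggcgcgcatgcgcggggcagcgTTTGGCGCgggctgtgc
Uhrf1 promoter window: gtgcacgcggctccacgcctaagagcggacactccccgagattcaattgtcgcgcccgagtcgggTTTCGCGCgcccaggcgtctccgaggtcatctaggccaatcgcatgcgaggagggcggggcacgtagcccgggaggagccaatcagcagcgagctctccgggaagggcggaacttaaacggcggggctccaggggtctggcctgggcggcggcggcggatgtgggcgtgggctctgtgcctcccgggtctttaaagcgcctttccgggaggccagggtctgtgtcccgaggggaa

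Genes of S phase, the replication phase in which *Dnmt1* and *Uhrf1* are known to be most abundant, were read beside them. Of 19 probes past the filter for these genes, 0 were called in limma, 13 had an unadjusted p under 0.05 (22.5% of all probes tested), all higher in Met-high cells, and 17 had a positive ratio. Both Met-high arrays were above both Met-low arrays for 16 of the 19, against 32.4% of all probes tested. Their median ratio was 0.66, beside 0.07 over all probes tested, and it was 0.52 with the percentile over detected probes and 0.58 after quantile normalization. The helicase subunit *Mcm5* had a ratio of 1.01 (SE 0.18, adjusted p = 0.0714) and *Cdc6*, which loads the helicase, 0.90 (SE 0.16, adjusted p = 0.0683). The proliferation marker *Mki67* had the opposite sign on both its probes, with ratios of -1.69 (SE 0.70, adjusted p = 0.250) and -1.15. The ratios of *Dnmt1* and of *Uhrf1* A_55_P2035286, 0.66 and 0.84, lay near the median of these genes. The part of the cell cycle in the *Dnmt1* and *Uhrf1* ratios was not tested.

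The enzymes that place new methylation had smaller ratios. *Dnmt3a* A_55_P2178084 gave 0.47 and 0.17 in Met-low and -0.05 and -0.03 in Met-high cells, so that the Met-low pair was the higher one without overlap. The ratio was -0.35 (SE 0.18, 95% interval -0.82 to 0.11), or 1.28-fold in favour of the Met-low population (adjusted p = 0.320), and it ran from -0.51 to -0.20 over the alternatives. *Dnmt3b* was read by 3 probes, and on each of them both Met-high arrays were above both Met-low arrays, as for 32.4% of all probes tested. The 3 probes were measured on the same RNA, so that they are not independent samples. A_55_P2130535 gave 0.10 and -0.12 in Met-low and 0.48 and 0.31 in Met-high cells, a ratio of 0.41 (SE 0.18, 95% interval -0.05 to 0.87, adjusted p = 0.260). A_55_P2008874 gave -2.06 and -2.01 against -1.70 and -1.66, a ratio of 0.35 (SE 0.15, adjusted p = 0.263). A_55_P1975903 gave -0.87 and -0.91 against -0.51 and -0.71, a ratio of 0.28 (SE 0.16, adjusted p = 0.370). With the percentile over detected probes these 3 ratios were 0.26, 0.20 and 0.14. All 3 intervals of the main fit included 0, and none of the *Dnmt3a* or *Dnmt3b* ratios reached 2-fold.

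Among the erasers, *Tet2*, which oxidises methylcytosine and lacks the CpG-binding CXXC domain of its relatives, was the member gene with the smallest adjusted p. Probe A_55_P2081303 had intensities of 619 and 934 in Met-low and of 315 and 434 in Met-high cells. After scaling, the signals were -0.61 and -0.51 in Met-low and -1.45 and -1.36 in Met-high cells. The groups were separate and tight, with means of -0.56 ± 0.07 and -1.40 ± 0.06 (SD, n = 2 each). The ratio was -0.84 (SE 0.15, 95% interval -1.25 to -0.44), a signal 1.79-fold higher in Met-low cells, and limma gave an adjusted p of 0.0745. With 1 probe kept for each gene, the adjusted p of the same probe was 0.0460, which is past the threshold, against 3.82% of the 11958 genes then tested that passed it as higher in Met-low cells.

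The other *Tet2* probe, A_55_P2051405, had lower intensities, 144 and 217 in Met-low and 74.4 and 107 in Met-high cells. Its signals of -2.71 and -2.62 in Met-low and -3.53 and -3.38 in Met-high cells again did not overlap. Its ratio was -0.79 (SE 0.16, 95% interval -1.21 to -0.37), or 1.73-fold in favour of the Met-low population (adjusted p = 0.0883). Both probes carry the same *Tet2* accession and were measured on the same RNA, so that they are not independent samples. The mean of the pair had a ratio of -0.82 and an adjusted p of 0.0535. Over all alternatives the ratio of A_55_P2081303 stayed between -0.99 and -0.78 and that of A_55_P2051405 between -0.93 and -0.49. The -0.49 of the dimmer probe came after normexp background correction, under which A_55_P2081303 had -0.78.

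The promoter window of *Tet2* is shown for its CpG content, since these genes act on CpG sites. It lies at chr3:133544341-133544640 on the minus strand of GRCm38.p6 and held 57 CpG sites (capitals), the most among the 13 windows, which ranged from 2 to 57. As many were found in 0.152% of all windows. The window of *Tet1*, at chr10:62887275-62887574 on the minus strand, held 17 CpG sites, a number that 31.4% of all windows reached. Neither window held TTTNNCGC. Methylation of these windows was not measured here.
Tet2 promoter window: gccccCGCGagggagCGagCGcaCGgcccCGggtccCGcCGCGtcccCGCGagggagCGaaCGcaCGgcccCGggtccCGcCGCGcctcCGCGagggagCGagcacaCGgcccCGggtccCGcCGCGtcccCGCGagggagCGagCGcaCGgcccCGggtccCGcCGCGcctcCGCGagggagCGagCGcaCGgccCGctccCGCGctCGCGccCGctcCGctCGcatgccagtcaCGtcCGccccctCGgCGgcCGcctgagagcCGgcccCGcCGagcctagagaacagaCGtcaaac
Tet1 promoter window: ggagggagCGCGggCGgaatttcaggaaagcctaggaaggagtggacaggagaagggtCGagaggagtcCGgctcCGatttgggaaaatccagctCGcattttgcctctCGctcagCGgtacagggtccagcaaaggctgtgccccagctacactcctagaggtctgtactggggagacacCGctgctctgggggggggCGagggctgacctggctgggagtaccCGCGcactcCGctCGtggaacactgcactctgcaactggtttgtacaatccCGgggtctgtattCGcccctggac

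*Tet1*, a dioxygenase best known from embryonic stem cells, gave dim signals on both probes. It was among the genes the study itself displayed from these arrays, so that its direction here is not independent evidence. A_55_P2122997 had intensities of 68.8 and 79.7 in Met-low and of 30.2 and 32.4 in Met-high cells, and it was not well above background on either Met-high array. It passed the filter only through the Met-low arrays. Its signals were -3.78 and -4.06 in Met-low and -4.83 and -5.10 in Met-high cells, with means of -3.92 ± 0.20 and -4.96 ± 0.19 (SD, n = 2 each). The signal was 2.06-fold higher in Met-low cells by the measured values (ratio -1.04, 95% interval -1.56 to -0.53, adjusted p = 0.0785 in limma). Since the filter had let this probe in through the population where it was high, that p is no support for a difference. After normexp background correction the ratio was -0.34 (adjusted p = 0.326).

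The other *Tet1* probe did not show a difference of this size. A_51_P512172 gave -3.70 and -3.79 in Met-low and -3.96 and -3.87 in Met-high cells, well above background on the arrays of both populations. Its ratio was -0.17 (SE 0.15, 95% interval -0.58 to 0.23, adjusted p = 0.552), and its sign turned after quantile normalization, with 0.019, and after normexp correction, with 0.031. The interval of this probe does not reach -1.04, the ratio of the other probe, and both carry the same accession. The other probe's own interval was -1.56 to -0.53, so that the intervals of the 2 probes overlap. The difference between the 2 *Tet1* probes was not tested.

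*Tet3* was read by 3 probes, of which 2 did not pass the filter. A_51_P199339 was well above background on 0 arrays, and A_52_P491273 on 1 Met-high array only. The remaining probe, A_55_P2175260, gave -1.36 and -0.81 in Met-low and -1.16 and -0.06 in Met-high cells. The groups overlapped and the replicates of the Met-high population lay far apart. The ratio was 0.47 (SE 0.43, 95% interval -0.65 to 1.59, adjusted p = 0.554), and it was -0.074 without Met-high replicate 2 and 1.02 without Met-high replicate 1. The *Tet2* pattern was thus not seen on the *Tet3* probe, and the difference between the 2 genes was not tested.

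*Tdg*, which removes the oxidised bases that Tet enzymes make, had 3 probes with ratios from -0.06 to 0.48. Differences between these probes were not tested. A_55_P2121364 gave -1.70 and -1.63 in Met-low and -1.21 and -1.16 in Met-high cells, with no overlap. Its ratio was 0.48 (SE 0.15, 95% interval 0.08 to 0.88), or 1.39-fold higher in Met-high cells, with an adjusted p of 0.177. The other probes overlapped between populations. A_66_P116265 had a ratio of 0.33 (SE 0.24, adjusted p = 0.465). A_55_P2044091 gave -0.52 and -1.37 in Met-low and -0.77 and -1.24 in Met-high cells, a ratio of -0.06 (SE 0.35, adjusted p = 0.938) that became 0.37 without Met-low replicate 1 and 0.17 without Met-high replicate 2.

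Other genes of the pathway were read from lists chosen from general knowledge. Of partners of the methyltransferases (*Dnmt3l*, *Uhrf2*, *Hells*, *Usp7*, *Pcna*, *Cdca7*, *Trim28*, *Zfp57* and *Dppa3*), 9 of 12 probes passed the filter and 0 were called, with 3 positive and 6 negative ratios and a median of -0.10. *Trim28*, a corepressor that keeps imprints methylated, had a ratio of 0.65 (SE 0.17, adjusted p = 0.133). *Uhrf2*, the paralogue of *Uhrf1*, had ratios of -0.60 (SE 0.44, adjusted p = 0.469) and -0.10 on its 2 probes. *Dnmt3l*, a cofactor of the de novo enzymes that lacks activity of its own, was not well above background on any array. Of proteins that read methylated or unmethylated CpG, 15 of 20 probes passed the filter, 0 were called, 7 ratios were positive and 8 negative. *Zbtb38* and *Zbtb4*, zinc finger proteins that bind methylated CpG, had ratios of -1.17 (SE 0.48, adjusted p = 0.243) and -0.52 (SE 0.21, adjusted p = 0.233).

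Of the genes that act with *Tdg* in base excision repair or were proposed as demethylation cofactors, 17 of 19 probes passed the filter and 1 was called. That probe was of *Apobec1*, a cytidine deaminase whose known substrate is apolipoprotein B mRNA. Its signals were -0.91 and -1.01 in Met-low and -2.38 and -2.98 in Met-high cells, a ratio of -1.72 (SE 0.25, adjusted p = 0.0491). *Apobec1* thus fell in Met-high cells by the test, though only just, and the adjusted p was over the threshold under several settings, among them quantile normalization with 0.0508, the percentile over detected probes with 0.0559 and normexp correction with 0.0576. It was also over the threshold when Met-low replicate 1 (0.129), Met-low replicate 2 (0.103) or Met-high replicate 2 (0.0869) was left out. *Gadd45b*, a stress-induced gene linked to active demethylation, gave -0.55 and -0.30 against -1.74 and -1.52, a ratio of -1.21 (SE 0.18) with an adjusted p of 0.0529. *Lig3*, the ligase of base excision repair, had a ratio of 0.72 (SE 0.19, adjusted p = 0.140) on 1 probe. Its other probe had 0.44 (SE 0.18, adjusted p = 0.238).

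The supply of methyl groups and of alpha-ketoglutarate, the cosubstrate of Tet enzymes, was read from 27 of 30 probes past the filter. None was called in limma, 5 of the 27 had an unadjusted p under 0.05, all higher in Met-high cells, where 22.5% of all probes tested had one, and 19 ratios were positive and 8 negative. *Shmt1*, which moves carbon units from serine to folate, gave -1.09 and -1.02 in Met-low and -0.08 and 0.06 in Met-high cells. The groups were far apart on this scale, with a ratio of 1.05 (SE 0.16) and an adjusted p of 0.0529, and its second probe had a ratio of 0.68. *Mat2a*, which makes S-adenosylmethionine, and *Idh2*, which makes alpha-ketoglutarate in mitochondria, each had a ratio of 0.57 (SE 0.16 and 0.15, adjusted p = 0.143 for each). The other *Mat2a* probe overlapped between populations, with a ratio of 0.36.

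**Figure D3:**
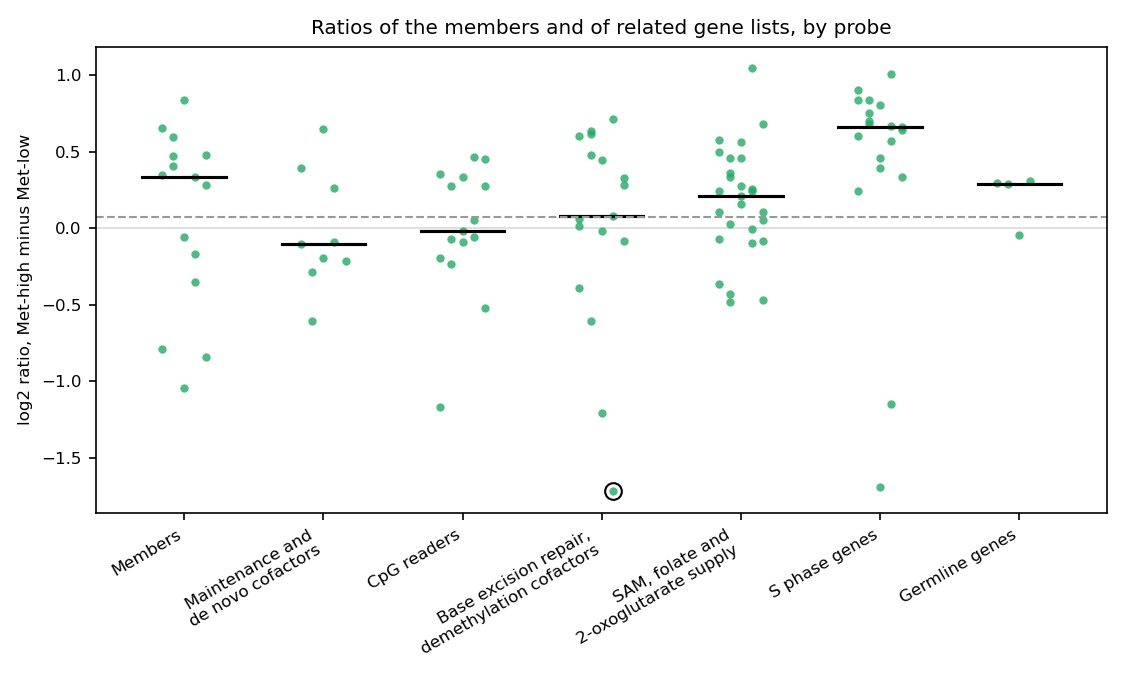
Log2 ratio of Met-high minus Met-low (log2 units) of every probe past the filter in the 8 member genes and in each related list, 1 dot per probe, with a black bar at the list's median and a dashed line at the median of all probes tested, 0.07. A ring marks an adjusted p under 0.05, which *Apobec1* alone among these probes has. The S phase genes have the highest median, 0.66.

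Germline genes that are normally kept silent by promoter methylation in somatic cells, such as *Dazl*, *Ddx4* and *Mael*, were read as a downstream list. Of their 20 probes, 14 were well above background on no array and only 4 passed the filter. None of the 4 was called, and none had an unadjusted p under 0.05 in limma. The testis bromodomain gene *Brdt* had a ratio of 0.31 (SE 0.15, adjusted p = 0.307) on 1 probe, and its other probe was well above background on no array. The ratio of *Tex101* was 0.29 (SE 0.73), which became -0.79 without Met-high replicate 2.

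The genes whose 4 signals were most like those of the leading *Tet2* and *Tet1* probes were found by the distance between signals centred on each probe's mean. Nearest to *Tet2* A_55_P2081303 were *5430405H02Rik* at 0.0216, *Gria4* at 0.0467 and *Top2b* at 0.0490 log2 units, with 346 genes within 0.3. Nearest to *Tet1* A_55_P2122997 were *Ctbs* at 0.0610, *Acad8* at 0.0718 and *Lpin1* at 0.0770, with 169 genes within 0.3. With only 4 arrays many genes share such a pattern, and the distances are given as a description.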

How the data were processed

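RNA of 2 Met-low and 2 Met-high samples of B16-F10 cells was measured on one-colour Agilent arrays. The deposited scanner output holds, for each spot, a linear Cy3 intensity from which background was subtracted, with quality flags; it came from Feature Extraction, version 11.0.1.1 per the file headers and 10.7.3.1 per the labels. The authors also deposited processed log2 values, scaled to the 75th percentile of each array and centred on each probe's median. Those were used as an alternative.

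Here the intensity (floored at 0.01) was taken to log2 minus each array's 75th percentile over the 43020 spots other than controls. Spots with an outlier flag were left out and spots of a probe averaged. Probes well above background on each array of 1 or both populations were tested with limma 3.58.1 (lmFit, eBayes; R 4.3.3), two-sided, with Benjamini-Hochberg adjustment over all 19796 probes at 0.05. The script was tested on simulated data. Exact permutation of 2 arrays against 2 cannot give a p below 0.333, so none was run. The study states that the RNA samples were independent. Intervals rest on 2 arrays a population, and this number limits their precision.

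RefSeq (GRCm38.p6) named 27427 of 39429 probes by accession and gave the promoter sequences; 12002 probes stayed unnamed, and array positions were not used. A fold against a population in which a probe was well above background on no array was computed against whichever was higher, its own signal there or the lowest one that was well above background on that array, and is written as a bound. Named were all member probes, called genes of each list or, where fewer than 3 were called, those with the largest ratios up to 3, and the 3 genes most alike. The member genes and lists were chosen with earlier results of these data known. Alternatives were the percentile over detected probes, quantile normalization, normexp correction (offset 50, on median signals), other filters, flagged spots kept, the deposited log2 values, each array left out, the replicate number as a block, a variance trend, a probe-wise test without shared variance, 1 probe or the mean of probes per gene, and a 2-fold rule.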

Additional observations from a re-analysis of the deposited data

How the results depend on the processing

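Of 217 ratios of member probes recomputed over the alternative settings, 212 kept their sign. Settings that changed only the filter on dim probes, the block, the variance model or the probes kept left each ratio unchanged by construction. Signs could not turn there, so that this count does not measure how firm they are. The 5 that reversed were *Tet1* A_51_P512172 (0.019 after quantile normalization and 0.031 after normexp correction), *Tet3* A_55_P2175260 (-0.074 without Met-high replicate 2, in a range up to 1.02 when single arrays were left out) and *Tdg* A_55_P2044091 (0.37 without Met-low replicate 1 and 0.17 without Met-high replicate 2, in a range from -0.48). Among 267 ratios of the named list genes 1 reversed, *Tex101*, to -0.79 without Met-high replicate 2, in a range up to 1.37.

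The count of member probes called, 0, was 1 with 1 probe a gene (*Tet2*), 1 by a 2-fold rule without a test (*Tet1*), and 0 when each array was left out in turn. Over the whole array, 410 probes were called with the higher signal in the Met-low population and 110 with the lower. With the percentile over detected probes these were 473 and 63, with a variance trend 458 and 189, with 1 probe a gene 457 and 233, with the mean of a gene's probes 450 and 215, and by a 2-fold rule 1153 and 425. With no filter on dim probes, and in the probe-wise test without shared variance, both were 0. Leaving out 1 array gave 215 to 530 and 34 to 271, the lone array being assumed to vary like the others. For probes of the related lists, the count of 1 was 0 after quantile normalization, with no filter, with flagged spots kept and in the probe-wise test, 3 with probes well above background on all 4 arrays, 6 with a variance trend, 6 with 1 probe a gene, 5 with the mean of probes, and 0 to 1 without single arrays. The cause of these moves was not tested.

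The arrays share only a replicate number. Deviations from the group means correlated with r = 0.53 between same-numbered arrays over 19776 probes, which are not independent. With the replicate number as a block, many more probes were called over the whole array. Of the 19796 past the filter, 1795 were called as higher in Met-low and 1470 as higher in Met-high cells. In the related lists 24 probes were called, and among the 15 member probes past the filter 5. These 5 were *Tet1* A_55_P2122997 (adjusted p = 0.0229, though it passed the filter through its Met-low arrays alone), both *Tet2* probes (0.0295 and 0.0318) and both *Uhrf1* probes (0.0304 and 0.0433).

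Without the block, every probe called over the whole array differed by at least 1.04 on the log2 scale in the fit of all probes. The *Tet1* probes and 2 *Tet3* probes lay close to background, and the ratio of *Tet1* A_55_P2122997 moved from -1.04 to -0.34 with normexp correction. *Tet2* A_55_P2051405 and *Tdg* A_66_P116265 were also dim. With the same correction their ratios moved from -0.79 to -0.49 and from 0.33 to 0.19. The ratio of the brighter *Tet2* probe moved from -0.84 to -0.78.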
